A study of Mus musculus with 9 samples.

Results

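In mouse liver the 6 host genes Mrc1, F8, Adgre1, Ets1, Fn1 and Pkhd1 were followed through their circular RNAs (circRNAs). These genes are known mainly from cells other than hepatocytes, and they were taken by host gene name from a table of back-splice reads. They host 40 of the 11312 circRNAs and are 6 of the 3929 host genes or joint hosts in that table. Mrc1 hosts 4 of the circRNAs, F8 6, Adgre1 6, Ets1 4, Fn1 7 and Pkhd1 13.

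Livers came from 8-week-old wild-type C57 BL6 mice of about 20 g. The dmPGE2+APAP group received 300 µg/kg dmPGE2, a stable analogue of prostaglandin E2, 1 hour before 500 mg/kg acetaminophen (APAP). The APAP group received 500 mg/kg APAP alone and the control group saline, and livers were taken 6 hours after APAP. Each group has 3 libraries of total RNA from whole liver, depleted of ribosomal RNA. The groups allow circRNA levels to be compared after APAP with and without dmPGE2, and with saline.

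A circRNA is a closed ring made when the end of an exon is joined to the start of an exon that lies upstream, and a read over that back-splice shows the ring. A ring has no free ends, so it resists exonucleases and usually outlasts the linear mRNA of its host. The liver is mostly hepatocytes by mass. Sinusoidal endothelial cells line its capillaries and clear ligands from blood, Kupffer cells are its resident macrophages, cholangiocytes line its bile ducts, stellate cells lay down matrix, and lymphocytes patrol it. APAP in overdose kills hepatocytes around the central veins.

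Mrc1 encodes the mannose receptor, an endocytic lectin of sinusoidal endothelium and macrophages. F8 encodes coagulation factor VIII, which is made mainly by endothelial cells. Adgre1 encodes F4/80, the surface receptor used to define mouse macrophages. Ets1 is a transcription factor of lymphocytes and endothelium. Fn1 encodes fibronectin, made by stellate cells and fibroblasts but also, as plasma fibronectin, by hepatocytes. Pkhd1 encodes fibrocystin, a protein of the primary cilium of bile duct and kidney tubule cells, whose loss gives polycystic kidney and liver disease.

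For each host the junction of its most abundant ring is printed as the last 30 bases of the downstream exon in lower case followed by the first 30 bases of the upstream exon it was joined to in capitals, both 5′ to 3′ on the gene's strand. This order exists in the ring and not in the linear mRNA. The bases were read from GENCODE M21 transcripts at the deposited ends on GRCm38.
Mrc1 novel_circ_0007978: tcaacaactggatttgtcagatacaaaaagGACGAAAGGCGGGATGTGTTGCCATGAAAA
F8 novel_circ_0015149: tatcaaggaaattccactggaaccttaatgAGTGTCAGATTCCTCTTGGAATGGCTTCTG
Adgre1 novel_circ_0005158: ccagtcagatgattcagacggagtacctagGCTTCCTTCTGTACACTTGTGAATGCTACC
Ets1 novel_circ_0014336: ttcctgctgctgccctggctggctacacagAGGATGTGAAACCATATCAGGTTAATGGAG
Fn1 novel_circ_0007473: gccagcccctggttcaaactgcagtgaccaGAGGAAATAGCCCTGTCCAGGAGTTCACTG
Pkhd1 novel_circ_0007164: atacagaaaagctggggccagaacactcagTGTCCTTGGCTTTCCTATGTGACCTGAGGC
The Mrc1 ring lies at chr2:14288987-14294944 on the plus strand and joins exon 15 to exon 12 of Mrc1-201. The F8 ring lies at chrX:75251658-75261716 on the minus strand and joins exon 22 to exon 20 of F8-201. The Adgre1 ring lies at chr17:57419322-57420524 on the plus strand and joins exon 12 to exon 11 of Adgre1-202. The Ets1 ring lies at chr9:32732949-32738359 on the plus strand and joins exon 6 to exon 4 of Ets1-201. The Fn1 ring lies at chr1:71604970-71606867 on the minus strand and joins exon 32 to exon 30 of Fn1-201. The Pkhd1 ring lies at chr1:20502942-20509112 on the minus strand and joins exon 35 to exon 34 of Pkhd1-201. The annotated exons between these ends add up to 561 bases in Mrc1, 314 in F8, 262 in Adgre1, 588 in Ets1, 435 in Fn1 and 371 in Pkhd1. Whether a ring keeps all of them was not measured, and the deposited exon list of the Adgre1 ring has 3 exons where the annotation has 2. That of the Ets1 ring has 1 exon of 77 bases and that of the Fn1 ring 2 exons of 277 bases, where the annotation has 3 in each.

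**Figure D1:**
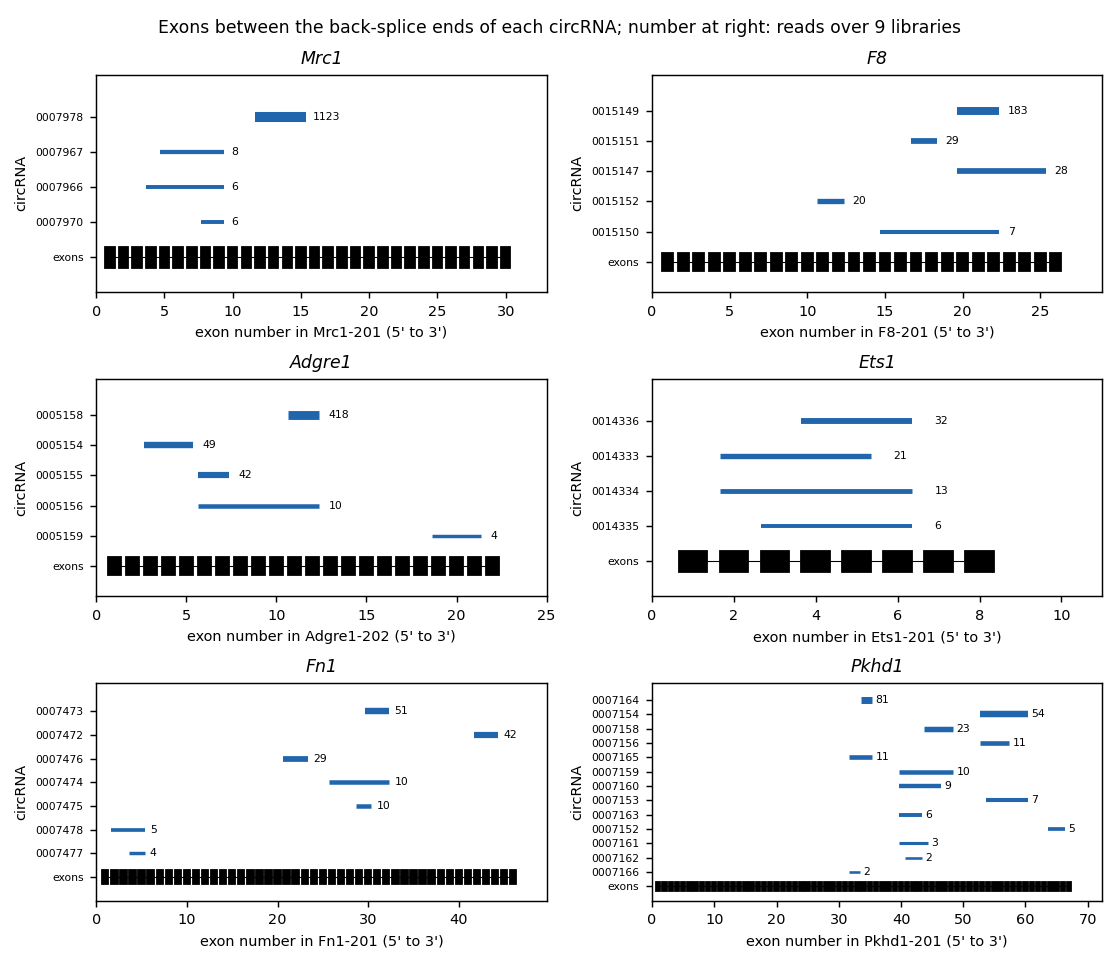
Exon numbers of the reference transcript of each host on the x axis (black boxes, each exon drawn at the same width) and, on the y axis, each circRNA with annotated ends as a blue bar from its first to its last exon; bar thickness grows with the log of its reads over 9 libraries, printed at the right. Mrc1 has 1 ring of 1123 reads and 3 of under 10, whereas the 13 Pkhd1 rings spread over exons 32 to 66.

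Of the 40 rings, 38 had both ends at annotated exon ends, and 38 lay within the coding span of the transcript. By the features in the table, 39 were exonic and 1, novel_circ_0005157 of Adgre1, intronic. It starts at 57418888 on chromosome 17, which is no annotated exon start, and shares its end with the most abundant Adgre1 ring. Ends were shared often: 30 of the 40 rings use a start or an end that another ring of the same gene also uses, among them all 4 Ets1 rings and 12 of 13 Pkhd1 rings. The exons between the ends add up to a multiple of 3 bases in 21 rings. Spans ran over 586 to 51353 bases, with a median of 6403, against 7800.5 for all other circRNAs.

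The 6 most abundant rings held 1888 of the 2530 reads of the 40, or 74.6%. The gene's reads were most concentrated in Mrc1, where 1 ring held 98.3% of them, and the shares of the leading ring were 67.8% in F8, 62.4% in Adgre1, 44.4% in Ets1, 36.2% in Pkhd1 and 33.8% in Fn1. Of the 40 rings, 18 were seen in 1 library only, 45.0% against 38.8% of the other circRNAs. A minimum of 5 reads in 3 libraries was passed by 13 rings, 32.5% against 38.3% of the others. These 13 were 1 of Mrc1, 2 of F8, 3 of Adgre1, 2 of Ets1, 3 of Fn1 and 2 of Pkhd1, and the other 27 rings had no test of their own.

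Back-splice reads per library numbered 99102 to 120531 in the dmPGE2+APAP group and 69268 to 109453 in the APAP group, with 154449, 129971 and 4362 in control 1 to 3. Control 3 stands apart in depth and in its low circular share, given further down, and fold changes against control are stated with and without it. The libraries named control are assigned by elimination, since their columns carry the code BC and numbers of their own. No label ties a library to an animal, and p-values therefore reflect spread among libraries, which may be technical. In whole tissue, fewer cells of a type and less RNA per cell cannot be told apart. The smallest count above 0 in the table was 2, so a gene listed at 0 may have had a read. A level here is back-splice reads per 1000000 back-splice reads of the library (CPM), a measure at junctions with no length term. A floor of 3 reads equals 688 CPM in control 3 and 19.4 to 43.3 CPM in the other 8 libraries, and covers counting error only.

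Mrc1 was the most abundant of the 6 hosts, at rank 161 of 3929 by mean CPM. Its host sum was 1178, 1453 and 1176 CPM in dmPGE2+APAP 1 to 3, 1620, 1444 and 491 CPM in APAP 1 to 3, and 1237, 1223 and 917 CPM in control 1 to 3. APAP 3 lay below all others, while APAP 1 and 2 lay above every control library. The reads behind these values were 142, 144 and 135 with dmPGE2+APAP, 176, 158 and 34 with APAP, and 191, 159 and 4 in control. The ring of exons 12 to 15 alone had 142, 144 and 127 reads with dmPGE2+APAP, 170, 152 and 34 with APAP, and 191, 159 and 4 in control. The other 3 Mrc1 rings, all ending at exon 9, had 8, 6 and 6 reads, each in a single library.

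In F8 the host sum was 257, 242 and 253 CPM with dmPGE2+APAP, 423, 201 and 0 CPM with APAP, and 473, 315 and 917 CPM in control. The last control value rests on 4 reads of control 3. Without that library the value of APAP 1 lay between those of control 1 and control 2. The ring of exons 20 to 22 had 27, 24 and 17 reads with dmPGE2+APAP, 33, 18 and 0 with APAP, and 32, 28 and 4 in control. Novel_circ_0015151, of exons 17 and 18, had 0, 0 and 5 reads with dmPGE2+APAP, 2, 4 and 0 with APAP, and 10, 8 and 0 in control. Rings of F8 were thus spread over the 3′ part of the gene, with 1 exception, a ring of exons 11 and 12 that had 20 reads in control 1 and none elsewhere.

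Adgre1 had 805, 696 and 967 CPM with dmPGE2+APAP, 975, 530 and 245 CPM with APAP, and 686, 816 and 0 CPM in control. As in Mrc1 and F8, APAP 3 was the lowest of the 8 deep libraries. The ring of exons 11 and 12 had 68, 41 and 70 reads with dmPGE2+APAP, 54, 33 and 6 with APAP, and 64, 82 and 0 in control. The intronic ring had 22, 13 and 19 reads with dmPGE2+APAP, 17, 14 and 11 with APAP, and 27, 24 and 0 in control. It was among the steadiest of the smaller rings, with reads in all 8 deep libraries. Novel_circ_0005154, of exons 3 to 5, had 0, 5 and 22 reads with dmPGE2+APAP, 11, 11 and 0 with APAP, and 0 in each control library. It was listed in 4 of the 6 libraries with APAP and in none of the controls, but did not pass the edgeR test (unadjusted p = 0.0319 and adjusted p = 0.799 for APAP against control, unadjusted p = 0.0270 and adjusted p = 0.960 for dmPGE2+APAP against control).

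Ets1 was the least abundant of the 6, at rank 1613. Its host sum was 183, 60.5 and 87.1 CPM with dmPGE2+APAP, 175, 0 and 0 CPM with APAP, and 58.3, 46.2 and 0 CPM in control. The lowest dmPGE2+APAP library lay next to control 1, and the reads were 22, 6 and 10 with dmPGE2+APAP, 19, 0 and 0 with APAP, and 9, 6 and 0 in control. The ring of exons 4 to 6 had 13, 0 and 10 reads with dmPGE2+APAP, 6, 0 and 0 with APAP, and 3, 0 and 0 in control. Novel_circ_0014333, of exons 2 to 5, had 3, 6 and 0 reads with dmPGE2+APAP, 0 in each APAP library, and 6, 6 and 0 in control. At these counts single reads decide the order.

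Fn1 had 257, 30.3 and 226 CPM with dmPGE2+APAP, 258, 119 and 0 CPM with APAP, and 0, 385 and 0 CPM in control. Each group held a library near or at 0 and another above 200 CPM, so the groups overlapped over their whole range. Control 1, the deepest library of all, listed no Fn1 circRNA, whereas control 2 had 50 Fn1 reads. The ring of exons 30 to 32 had 18, 0 and 6 reads with dmPGE2+APAP, 11, 0 and 0 with APAP, and 0, 16 and 0 in control. Novel_circ_0007472, of exons 42 to 44, had 0 reads in each dmPGE2+APAP library, 10, 5 and 0 with APAP, and 0, 27 and 0 in control. Novel_circ_0007476, of exons 21 to 23, had 8, 3 and 6 reads with dmPGE2+APAP, 0, 5 and 0 with APAP, and 0, 7 and 0 in control.

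Pkhd1 had 290, 464 and 200 CPM with dmPGE2+APAP, 331, 183 and 274 CPM with APAP, and 97.1, 231 and 0 CPM in control. Control 1 lay below all 6 libraries with APAP, and control 2 lay within their range. The ring of exons 34 and 35 had 23, 7 and 6 reads with dmPGE2+APAP, 22, 9 and 0 with APAP, and 4, 10 and 0 in control. Novel_circ_0007154, of exons 53 to 60, had 9, 5 and 8 reads with dmPGE2+APAP, 11, 0 and 14 with APAP, and 7, 0 and 0 in control. APAP 3, lowest for Mrc1, F8 and Adgre1, was not low for this host. The remaining 11 Pkhd1 rings had 2 to 23 reads in all, and 7 of them were seen in 1 library.

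**Figure D2:**
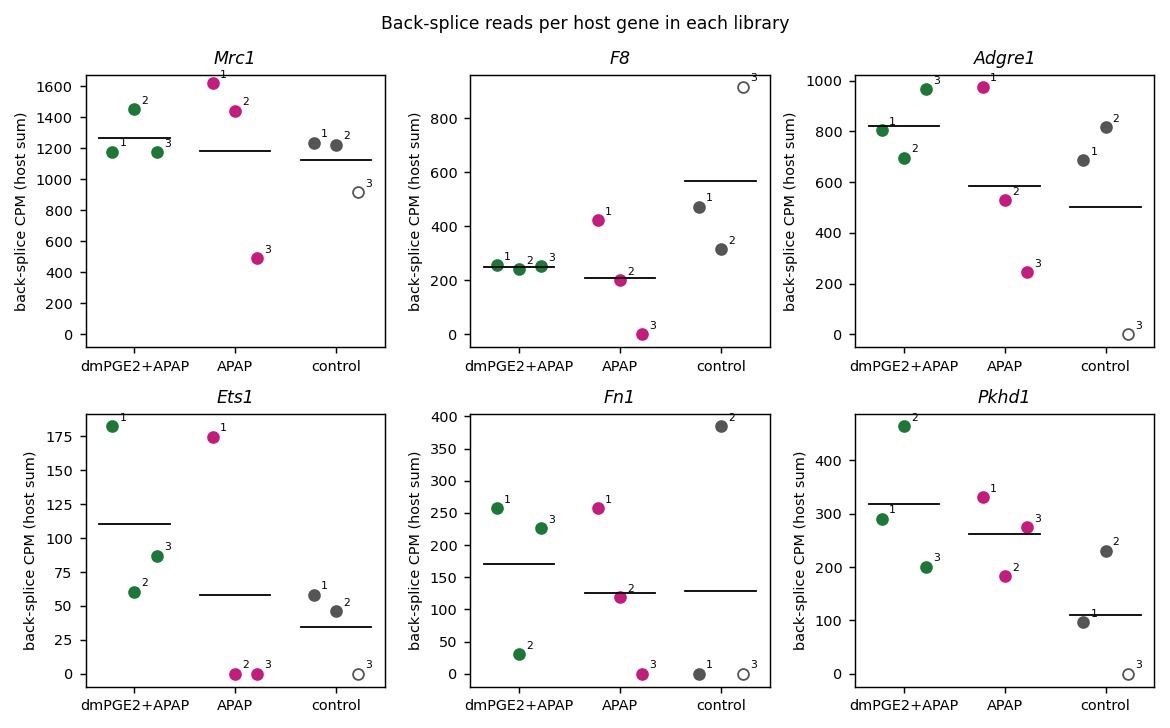
Host sums of back-splice reads in CPM on the y axis (linear, from 0, scaled per panel) for dmPGE2+APAP, APAP and control on the x axis; points are libraries with their numbers, bars are group means of 3, and the open point is control 3 with 4362 reads. APAP 3 is the lowest deep library for Mrc1, F8 and Adgre1 but not for Pkhd1.

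**Figure D3:**
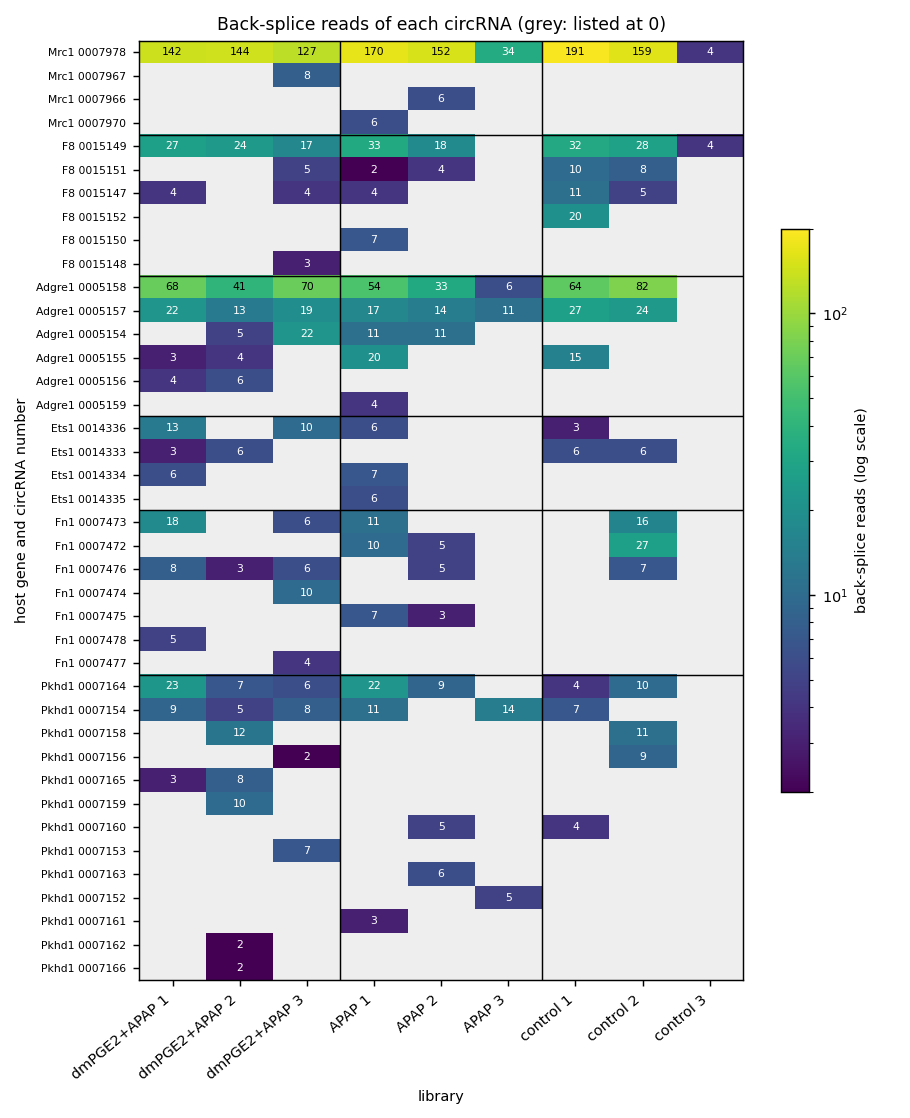
Back-splice reads of all 40 circRNAs (rows, by host gene and the number in their identifier) in 9 libraries (columns), with colour on a log scale and grey where a circRNA is listed at 0. The leading Mrc1 ring has reads in 9 of 9 libraries, whereas most Fn1, Ets1 and Pkhd1 rings have under 30 reads in few libraries.

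Between the groups, the mean host sums of Mrc1 were 1269 ± 159 CPM with dmPGE2+APAP, 1185 ± 607 CPM with APAP and 1126 ± 181 CPM in control (SD, n = 3 each). For APAP against control the edgeR log2 fold change was 0.07 with a 95% interval of -0.63 to 0.77 (adjusted p = 0.997). For dmPGE2+APAP against APAP it was 0.10 with an interval of -0.57 to 0.77 (adjusted p = 1.00). These were the narrowest intervals of the 6 hosts, and the second value was -0.27 without APAP 3. For dmPGE2+APAP against control it was 0.16 (adjusted p = 1.00). Without control 3 the value for APAP against control was -0.07 and that for dmPGE2+APAP against control 0.0072. The control mean of Mrc1 without control 3 was 1230 CPM, above that with APAP.

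F8 averaged 251 ± 7.70 CPM with dmPGE2+APAP, 208 ± 212 CPM with APAP and 568 ± 312 CPM in control (SD, n = 3 each). Its log2 fold change was -1.01 for APAP against control, with an interval of -2.35 to 0.34, and -0.77 for dmPGE2+APAP against control, with an interval of -2.11 to 0.56 (adjusted p = 0.997 and 1.00). The first value was -0.45 without APAP 3, -2.01 without APAP 1 and -0.90 without control 3. For dmPGE2+APAP against control the value without control 3 was -0.69, and the control mean without it was 394 CPM. For dmPGE2+APAP against APAP it was 0.23, with -0.32 without APAP 3 and 1.23 without APAP 1. No comparison of F8 passed the test.

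Adgre1 averaged 823 ± 136 CPM with dmPGE2+APAP, 584 ± 368 CPM with APAP and 501 ± 438 CPM in control (SD, n = 3 each). Its log2 fold change was 0.49 for dmPGE2+APAP against APAP, with an interval of -0.35 to 1.34 (adjusted p = 1.00). Without APAP 3 it was 0.13, and without APAP 1 it was 1.10. For APAP against control it was -0.14 with all libraries, 0.21 without APAP 3, 0.16 without control 2, -0.37 without control 3 and -0.74 without APAP 1. For dmPGE2+APAP against control it was 0.35 with all libraries and 0.10 without control 3. The control mean of Adgre1 without control 3 was 751 CPM, above that with APAP.

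Ets1 averaged 110 ± 64.1 CPM with dmPGE2+APAP, 58.3 ± 101 CPM with APAP and 34.8 ± 30.7 CPM in control (SD, n = 3 each). Its log2 fold change for dmPGE2+APAP against control was 1.27, with an interval of -2.08 to 4.62 (adjusted p = 1.00), and 1.03 without control 3. Fn1 averaged 171 ± 123 CPM with dmPGE2+APAP, 125 ± 129 CPM with APAP and 128 ± 222 CPM in control (SD, n = 3 each). Its log2 fold change for the same comparison was 0.08, with an interval of -1.87 to 2.04 (adjusted p = 1.00), and -0.17 without control 3. Over single libraries left out, the Fn1 value ran from -0.63 without control 1 to 7.10 without control 2, the only control library with Fn1 reads, and a value fitted against controls at 0 is no bound. The intervals of Ets1 and Fn1 are the widest of the 6. The control means of Ets1 and Fn1 without control 3 were 52.2 and 192 CPM.

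Pkhd1 averaged 318 ± 134 CPM with dmPGE2+APAP, 263 ± 74.9 CPM with APAP and 109 ± 116 CPM in control (SD, n = 3 each). Its log2 fold change was 1.10 for dmPGE2+APAP against control, with an interval of -0.39 to 2.59 (adjusted p = 1.00), 0.92 without control 3 and 0.76 to 1.91 over single libraries left out. For APAP against control it was 0.80, with an interval of -0.69 to 2.29 (adjusted p = 0.997), 0.63 without control 3 and 0.49 to 1.61 over single libraries left out. Neither passed the test. The control mean of Pkhd1 without control 3 was 164 CPM.

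**Figure D4:**
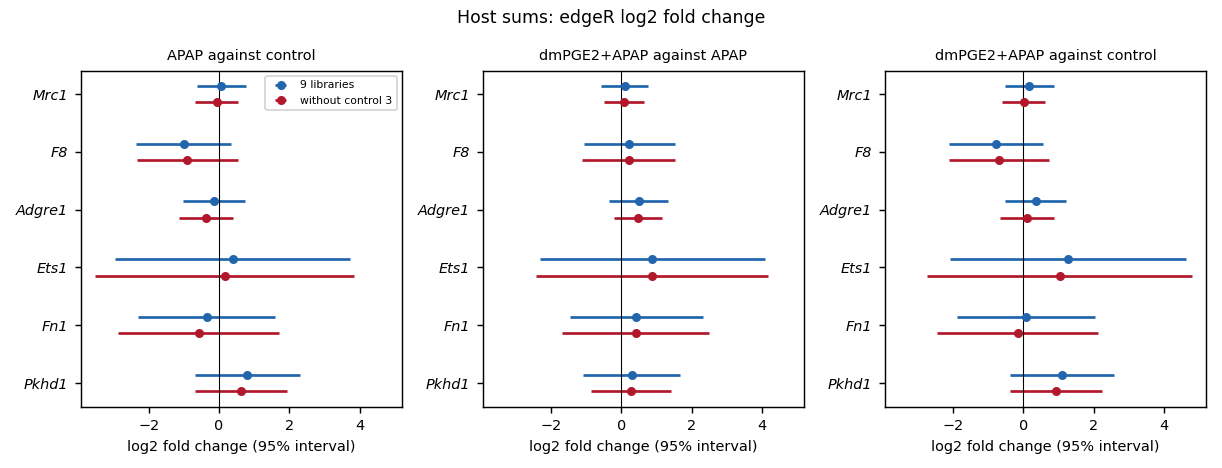
edgeR log2 fold changes of the 6 host sums on the x axis (points, with 95% intervals) in 3 panels for the 3 comparisons, in blue with 9 libraries and in red without control 3. Every interval includes 0, from the narrow ones of Mrc1 to those of Ets1, which reach from -2.96 to 3.73 for APAP against control.

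Across the tests, 0 of the 6 hosts passed in any of the 3 comparisons by edgeR's quasi-likelihood test with Benjamini-Hochberg adjustment over 2358 host genes, and 0 had an unadjusted p under 0.05. Among all tested hosts the same rule took few, and 0.339% passed for APAP against control, 0.127% for dmPGE2+APAP against APAP and 0.17% for dmPGE2+APAP against control. Of the 13 tested rings, 0 passed in any comparison, against a background of 0.139%, 0.0693% and 0.115% of 4331 circRNAs for APAP against control, dmPGE2+APAP against APAP and dmPGE2+APAP against control. An unadjusted p under 0.05 was reached by 1, 1 and 2 of the 13, and by 5.17%, 3.81% and 4.34% of the 4331. DESeq2 and limma-voom also called none of the 6 hosts. The median log2 fold change of all tested hosts was itself 0.13, 0.04 and 0.19 in the 3 comparisons with all 9 libraries, and -0.03, 0.03 and 0.03 without control 3. The members' medians of -0.04, 0.37 and 0.26 stand beside these.

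APAP 3 was below each of the other 7 deep libraries in CPM for Mrc1, F8 and Adgre1, as it was for 12.9% of all 2358 tested hosts. The 3 were picked out after their values were seen. That library was also the shallowest of the 8, with 69268 reads and 5 of the 40 rings listed, against 13 to 20 rings in the others. The summed host CPM of 37 sinusoidal endothelial markers, of which 15 host a circRNA, was 3014 to 3128 with dmPGE2+APAP, 1891 to 3755 with APAP and 2947 to 3218 in control 1 and 2, and its lowest value was that of APAP 3. For 32 Kupffer cell and macrophage markers, 4 with a circRNA, the sum was 1362 to 1676 with dmPGE2+APAP, 837 to 1702 with APAP and 1462 to 1515 in control 1 and 2, again lowest in APAP 3. Mrc1 and F8 are counted in the first sum and Adgre1 in the second, so neither sum is independent of the members' low values. Adgre1 alone gave 967 of 1542 CPM in dmPGE2+APAP 3 and 245 of 837 CPM in APAP 3. Sums without the members were not compared. The most abundant other host of each list was not lowest in APAP 3. Plpp3 had 736 CPM there and 730 CPM in dmPGE2+APAP 1, and Mertk had 520 CPM there and 488 CPM in dmPGE2+APAP 3. For 36 hepatocyte markers, 26 with a circRNA, the sum in APAP 3 was 20543 CPM, inside the range of 18244 to 23908 CPM of the 8 libraries. Aass alone gave 13686 of those 20543 CPM. Slco1b2, a hepatocyte uptake transporter, had 2531, 2248 and 2223 CPM in APAP 1 to 3, so its value in APAP 3 was close to that in APAP 2. It had 3211, 2684 and 3319 CPM with dmPGE2+APAP, and 3451 and 3932 CPM in control 1 and 2. The part of depth or cell content in the low values of APAP 3 was not tested.

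The back-splice table gives little hold on cell identity, since many defining markers host no circRNA in it. Lyve1, Clec4g, Kdr and Cdh5 of the sinusoidal list were not listed, nor were Clec4f, Timd4, Csf1r and Cd68 of the Kupffer list, Cd3e, Cd4, Cd8a and Cd79a of the lymphocyte list, or Krt7, Krt19, Epcam and Sox9 of the cholangiocyte list. Neutrophil markers were listed for 0 of 15 genes. Stab1 and Stab2, scavenger receptors of sinusoidal endothelium, had 26 and 90 reads in all. The remaining lists rest on few hosts, and most of their sums overlapped between the groups. The lymphocyte list had 5 of 34 genes with a circRNA, and its sums were 87.1 to 332 CPM with dmPGE2+APAP, 0 to 318 CPM with APAP and 108 to 188 CPM in control 1 and 2. The stellate and matrix list had 6 of 34, and its sums were 232 to 348 CPM with dmPGE2+APAP, 0 to 350 CPM with APAP and 58.3 to 446 CPM in control 1 and 2. The cholangiocyte list had 3 of 24, and its sums were 279 to 716 CPM with dmPGE2+APAP, 402 to 505 CPM with APAP and 220 to 323 CPM in control 1 and 2. In no cell type list did a tested host pass in any comparison, in either direction. Among all tested hosts 0.339%, 0.127% and 0.17% did in the 3 comparisons.

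Other hosts of the same lists serve as a setting. Plpp3, a lipid phosphatase expressed in endothelium, had 730, 928 and 1063 CPM with dmPGE2+APAP, 874, 831 and 736 CPM with APAP, and 732, 762 and 0 CPM in control. Mertk, the receptor by which macrophages take up dying cells, had 871, 555 and 488 CPM with dmPGE2+APAP, 727, 566 and 520 CPM with APAP, and 751, 646 and 0 CPM in control. Its APAP 3 value lay above 1 dmPGE2+APAP library. Dcdc2a, a ciliary protein of bile ducts, had 49.8, 252 and 78.4 CPM with dmPGE2+APAP, 82.8, 219 and 231 CPM with APAP, and 123, 46.2 and 0 CPM in control.

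The families around the members gave no call either. Of 10 tested endocytic receptors 0 passed the test in either direction in any comparison. The same held for 7 coagulation and fibrinolysis genes, 4 adhesion GPCRs and 6 ETS factors. It also held for 6 fibronectin receptors and matrix genes and 8 genes of polycystic disease and the cilium. Over all tested hosts 0.339%, 0.127% and 0.17% passed in the 3 comparisons, so lists this short could hardly hold a call. Each list includes a member. For APAP against control the median log2 fold change was 0.08 for endocytic receptors, 0.40 for adhesion GPCRs, 0.66 for the fibronectin list and 0.50 for the cilium list. Without control 3 these medians were -0.14, 0.13, 0.43 and 0.40. The coagulation list had a median of -0.81, beside 0.13 for all tested hosts. Without control 3 it was -0.90, beside -0.03. In it, Plg, the precursor of plasmin, had 124, 0 and 105 CPM with dmPGE2+APAP, 73.6, 54.8 and 231 CPM with APAP, and 194, 292 and 0 CPM in control. Kng2 was the most abundant tested host of the coagulation list. It had 1070, 817 and 897 CPM with dmPGE2+APAP, 451, 923 and 577 CPM with APAP, and 868, 623 and 2522 CPM in control. The ETS list had a median of 0.54 beside 0.13 for all tested hosts, and 0.38 beside -0.03 without control 3. Elf2 was the most abundant tested host of the ETS list. It had 6222, 4854 and 4713 CPM with dmPGE2+APAP, 5135, 6350 and 6410 CPM with APAP, and 4726, 5363 and 5731 CPM in control. Elf1 of the same list is a factor of blood cells and was far less abundant. It had 124, 90.8 and 122 CPM with dmPGE2+APAP, 202, 0 and 43.3 CPM with APAP, and 0 in each control (adjusted p = 0.845 for APAP against control, edgeR). Lrp6, a Wnt co-receptor in the endocytic list, was steadier, with 3144, 3017 and 2814 CPM with dmPGE2+APAP, 2752, 2978 and 2642 CPM with APAP, and 2823, 2562 and 1605 CPM in control.

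Patterns across libraries were compared by the root mean square difference of centred log2 CPM over the 8 deep libraries, among 2324 hosts. The nearest to Mrc1 were Pias1 at 0.17 and Lactb2 at 0.18. Nearest to F8 were Tpp2 at 0.24 and Kdm4c at 0.33, to Adgre1 Dnajc5 at 0.22 and Akap13 at 0.24, and to Pkhd1 Aftph at 0.29 and Dtx3l at 0.32. Those nearest to Ets1, Rab5a at 0.38 and 2610021A01Rik at 0.54, and to Fn1, Adnp2 at 0.67 and Med13 at 0.74, were farther off. Among the members themselves, Mrc1 and Adgre1 were closest at 0.33, and Fn1 and Pkhd1 farthest apart at 1.61. All values share the libraries and their depth.

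The circular share sets back-splice reads against the reads listed at a ring's ends that lack the back-splice (non-junction reads), as a percent of both. It compares reads at junctions and is not a share of molecules. Non-junction reads are listed only where a ring has back-splice reads, so the share of a host depends on which rings were listed in a library, and rings that share an end can count a read more than once. At 391 circRNAs with values in all libraries, the share was 54.7% to 57.0% with dmPGE2+APAP, 49.4% to 57.7% with APAP, 60.9% and 60.1% in control 1 and 2, and 3.17% in control 3. Control 3 was therefore left out of the test of the share. Intervals beside shares are 95% Wilson intervals and cover counting error only.

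Mrc1 had the highest share of the 6 hosts in 7 of the 8 deep libraries. It was 78.5% (71.9% to 83.8%), 66.1% and 52.1% (46.1% to 58.1%) with dmPGE2+APAP, 59.3%, 61.7% and 49.3% (37.8% to 60.8%) with APAP, and 76.7% (71.1% to 81.5%), 75.7% and 2.33% in control. The median host had 23.6%, 25% and 25% with dmPGE2+APAP, 22.4%, 27.3% and 25% with APAP, and 29.3%, 29.9% and 3.30% in control. All 3 APAP libraries lay below control 1 and 2, with a difference of -1.28 ± 0.60 in the log2 ratio (SE, limma, unadjusted p = 0.0576, adjusted p = 0.462). The median host was also lower in all 3 APAP libraries than in control 1 and 2, and hosts with this order were not counted. Over the 1207 tested hosts the median difference was -0.34, and 11.1% had an unadjusted p under 0.05. With the leading ring alone the Mrc1 difference was -0.72, beside a median of -0.41 over the leading rings of all tested hosts. The other Mrc1 rings bring 49 to 67 non-junction reads into 3 libraries and none into the controls. In that ring the share was 78.5%, 66.1% and 69.0% with dmPGE2+APAP, 70.8%, 75.6% and 49.3% with APAP, and 76.7% and 75.7% in control 1 and 2.

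Adgre1 had a share of 27.7% (23.3% to 32.6%), 21.2% and 47.0% (40.8% to 53.4%) with dmPGE2+APAP, 39.4%, 39.7% and 21.8% with APAP, and 51.5% (44.7% to 58.2%) and 67.1% (59.4% to 73.9%) in control 1 and 2. All 6 libraries with APAP lay below both controls, as they did for 11.1% of 935 hosts with a value in the 8 libraries, against 1.82% with all 6 above. The log2 ratio differed by -1.70 ± 0.67 for dmPGE2+APAP against control (SE, limma, unadjusted p = 0.0300, adjusted p = 0.476) and by -1.56 ± 0.67 for APAP against control (unadjusted p = 0.0423, adjusted p = 0.433). Over the 1207 tested hosts the medians of these differences were -0.30 and -0.34. An unadjusted p under 0.05 was reached by 8.86% and 11.1% of them. In the ring of exons 11 and 12 alone the share was 51.5%, 44.1% and 57.9% with dmPGE2+APAP, 47.4%, 50.8% and 14.0% with APAP, and 49.2% and 68.9% in control 1 and 2, so control 1 lay inside the treated range. The differences on that ring were -0.48 for dmPGE2+APAP against control and -1.43 for APAP against control. The medians over the leading rings of all tested hosts were -0.30 and -0.41. In the intronic ring, novel_circ_0005157, the share was 43.1%, 30.2% and 38.0% with dmPGE2+APAP and 30.9%, 48.3% and 31.4% with APAP. In control 1 and 2 it was 62.8% and 61.5%. These values rest on 11 to 27 back-splice reads per library, and the ring shares its end with the ring of exons 11 and 12. The order of the groups was not counted over all single rings.

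F8 had a share of 30.7%, 30% and 21.6% with dmPGE2+APAP, 21.7% and 28.9% in APAP 1 and 2, and 32.3%, 33.3% and 5.19% in control. Pkhd1 had 44.3%, 38.3% and 37.7% with dmPGE2+APAP, 55.4%, 35.1% and 70.4% (51.5% to 84.1%) with APAP, and 48.4% and 45.5% in control 1 and 2. In APAP 3 the Pkhd1 share was the highest of that host and was built on 19 back-splice and 8 non-junction reads. The log2 ratios of F8 and Pkhd1 differed by -0.53 and 0.39 for APAP against control (limma, adjusted p = 0.804 and 0.887). The median over all tested hosts was -0.34. Of the 4 hosts tested, 0 passed in any comparison, against a background of 0.0829%, 0% and 0% of 1207 hosts for APAP against control, dmPGE2+APAP against APAP and dmPGE2+APAP against control.

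Ets1 and Fn1 had values in too few libraries for the test. The share of Ets1 was 22.9%, 11.5% and 25% with dmPGE2+APAP, 13.4% in APAP 1, and 5.14% (2.73% to 9.48%) and 6.25% (2.90% to 12.97%) in control 1 and 2. These shares rest on 6 to 22 back-splice reads and on different rings. In dmPGE2+APAP 2 and control 2 only the ring of exons 2 to 5 was listed, and in dmPGE2+APAP 3 only the ring of exons 4 to 6. Fn1 stood at the other end from Mrc1. Only 3 of its 7 rings have a non-junction list that can be read without doubt, and they gave 0.177% in dmPGE2+APAP 1 and 0.562% in dmPGE2+APAP 3. With the other lists read as printed, an alternative added after the data were seen, the share was 0.367%, 0.568% and 0.662% with dmPGE2+APAP, 1.18% and 0.657% in APAP 1 and 2, and 4.17% in control 2. Its back-splice reads stood beside 525 to 3527 non-junction reads per library in that reading. Fn1 transcripts of hepatocytes and of other cells cannot be told apart here.

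**Figure D5:**
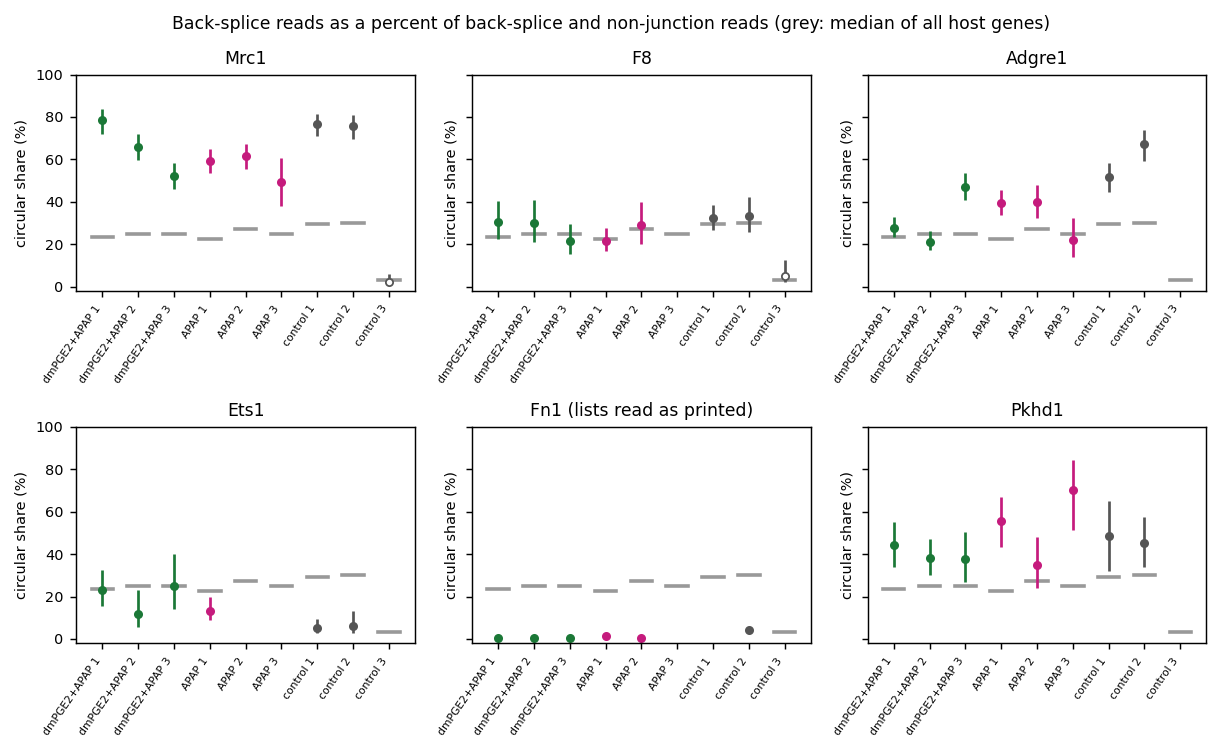
Circular share in percent on the y axis for each library on the x axis, in 6 panels by host; points are host values with 95% Wilson intervals, the open point is control 3, and grey bars are the median of all hosts in that library. Mrc1 lies above the grey bars in all 8 deep libraries, Fn1 (with its lists read as printed) below them, and in Adgre1 the 6 treated libraries lie below control 1 and 2.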

How the data were processed

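Liver circRNAs were measured in 9 libraries. Per the labels' protocols, 1 µg of total RNA was depleted of ribosomal RNA and libraries were made with dUTP strand marking. Per the submitters' processing notes, HISAT2 and build GRCm38 (mm10) were used in a role not stated. A circRNA caller with its filters is not given in the sources used here. The deposited counts are the authors' whole-number back-splice reads per circRNA, per the file headers, unscaled. Another 9 value columns, a scaled form of the same reads, were not used. Columns of the APAP and dmPGE2+APAP libraries carry the sample titles' numbers, whereas the 3 control columns carry the code BC and were assigned by elimination.

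Counts summed per host, and per circRNA, entered edgeR 4.0.16 in R 4.3.3 (quasi-likelihood F test, TMM, all 9 libraries, at least 5 reads in at least 3 libraries, Benjamini-Hochberg over all features tested, threshold 0.05). The log2 ratio of back-splice to non-junction reads (0.5 added to each, at least 10 reads in at least 2 libraries per group) was tested with limma 3.58.1 without control 3. Non-junction lists that may have been turned into a single number were left out, so 9559 circRNAs were used and 1753 not. Of 37463 items of the junction lists compared with the counts, 0 differed. Intergenic circRNAs, with 1.72% of reads, belong to no host. Of the symbols, 119 came from gene IDs. All 6 hosts were named. Per-library reads were given for rings past the filter and for the most abundant ring of each host. Alternatives were DESeq2 1.42.0, limma-voom, other scalings and filters, and leaving out each library. Tests were checked on simulated data. The simulated counts had a fixed spread and the simulated shares counting error only, so the check does not cover the spread among these libraries.

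Members, gene lists and tests were chosen with earlier results of these data known. No pairing of the APAP and dmPGE2+APAP libraries by replicate number was seen.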

Additional observations from a re-analysis of the deposited data

How the results depend on the processing

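None of the 6 hosts and none of their leading rings passed the threshold under any alternative run, where the lowest adjusted p was 0.345. The other rings were not followed through all alternatives. Of 712 alternative values of the 48 member fold changes and ratios, 661 kept their direction and 51 reversed. Counts of called features over the whole table moved more. For host sums they were 8, 3 and 4 in APAP against control, dmPGE2+APAP against APAP and dmPGE2+APAP against control. DESeq2 gave 13, 1 and 1 and limma-voom 2, 0 and 1. A filter of 10 reads gave 4 and 2 in the comparisons with control, and no filter 6 in dmPGE2+APAP against APAP. For circRNAs the counts were 6, 3 and 5, with DESeq2 14, 0 and 1, with a filter of 10 reads 2, 1 and 3, with limma-voom 0 and 2 in the comparisons of dmPGE2+APAP, with no filter 9 and 12 there, and without TMM 12 and 10 in those with control. The circular ratio gave 1 call for APAP against control, and 0 with all 9 libraries or at least 30 reads. Leaving out each library gave 5 to 8, 1 to 6 and 3 to 8 host calls, 3 to 10, 1 to 3 and 4 to 8 circRNA calls, and 0 to 2, 0 to 1 and 0 to 0 ratio calls. With the replicate number as a block, dmPGE2+APAP against APAP gave 5 host calls, 3 circRNA calls and 0 ratio calls. Same-numbered libraries correlated at -0.00128, 0.00534 and 0.0134 over 2358 hosts, and differently numbered ones at -0.026 to 0.021. No pairing by number was seen, but values this near 0 cannot exclude one. The control columns' numbers are not those of samples.

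Log2 values for APAP against control reversed without TMM to -0.014 in the Mrc1 sum and -0.032 in its ring. With limma-voom they reversed to -0.13 and -0.17 in the Mrc1 sum and ring, -1.68 and -0.43 in those of Ets1, and 1.28 in the Fn1 sum. With control 3 in the circular ratio, Mrc1 turned to 1.02 for APAP and 1.60 for dmPGE2+APAP against control, and F8 to 0.47 and 0.63. At 30 reads the Pkhd1 ratio was -0.11 for APAP against control. On the leading ring the Adgre1 ratio for dmPGE2+APAP against APAP was 0.95. The other reversals came from leaving out libraries, with these ranges. For host sums and APAP against control, they were -0.23 to 0.43 in Mrc1, -5.19 to 0.94 in Ets1, -0.74 to 0.21 in Adgre1, -1.36 to 6.66 in Fn1. For host sums and dmPGE2+APAP against APAP, they were -0.054 to 0.54 in Pkhd1, -0.27 to 0.40 in Mrc1, -0.32 to 1.23 in F8, -0.12 to 1.46 in Fn1. For host sums and dmPGE2+APAP against control, they were -0.63 to 7.10 in Fn1. For the leading ring and APAP against control, they were -0.22 to 0.50 in Mrc1, -3.01 to 3.98 in Ets1, -0.034 to 2.12 in Pkhd1, -5.31 to 4.85 in Fn1. For the leading ring and dmPGE2+APAP against APAP, they were -0.39 to 5.83 in Fn1, -0.68 to 1.32 in Pkhd1, -0.26 to 0.46 in Mrc1, -0.22 to 1.26 in F8. For the leading ring and dmPGE2+APAP against control, they were -0.78 to 5.79 in Fn1, -0.023 to 0.42 in Mrc1, -0.0057 to 0.79 in Adgre1. For the circular ratio and APAP against control, they were -0.11 to 0.93 in Pkhd1. For the circular ratio and dmPGE2+APAP against APAP, they were -0.62 to 0.24 in Adgre1. The widest of these come from groups left with libraries at 0, where a fitted value is no bound. The cause of the reversals was not tested. Ets1 and Fn1 had at most 22 and 50 reads in a library.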
